A study of Mus musculus with 22 samples.

Results

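Lamina-associated domains (LADs) are long stretches of chromatin that lie at the nuclear lamina, and the called intervals that make them up are not continuous. Narrow breaks were defined by their length and place in the deposited lists of LAD intervals: a break is a gap of less than 25 kb between neighboring intervals on chromosomes 1 to 19 that lies inside a LAD, where a LAD is a run of intervals joined across such gaps and longer than 100 kb in all. The 11 lists held 79734 gaps between neighboring intervals, of which 23410 were breaks. A further 5106 narrow gaps lay in joined stretches of 100 kb or less. The other 51218 gaps were 25 kb or longer and separate joined stretches of any length, LADs or shorter ones, from each other. The smallest gap in any list was 10001 bp, and no gap of 10 kb or less was listed; where this lower limit comes from is not given in the sources used here. Because the calls themselves chose the members, the number and the length of the breaks in a list are descriptions. The rule was the same for each list and used no treatment, and only comparisons between lists were tested.

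LADs are mostly poor in active genes and carry repressive histone marks, among them methylation of histone H3 at lysine 9 and, near their borders, at lysine 27. They are held at the lamina with the help of lamins and of proteins of the inner nuclear membrane. Genes and regulatory elements that are active within an otherwise repressed LAD can locally lose contact with the lamina, and short stretches without lamina contact within LADs are known from several cell types. DamID reads this contact by fusing a bacterial adenine methyltransferase (Dam) to lamin B1, a lamin of the nuclear periphery, and comparing the methylation it leaves with that left by Dam alone.

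The lists came from primary mouse embryonic fibroblasts (MEFs) of C57bl/6 embryos (C57BL/6J in the study's methods) at e13.5, cultured for no more than 5 passages. Each list rests on a pair of sequenced samples, Dam-lamin B1 and Dam-only, 22 samples in all, and all lists therefore share the viral expression of Dam. Embryos are named as in the labels (pup1.5, pup1.8 and pupx17 are written here 1.5, 1.8 and x17). In all groups the labels call the x17 list replicate 2 and the lists of 1.5 and 1.8 replicate 1. Untreated cells (WT) gave 3 lists, from embryos 1.5, 1.8 and x17. BIX01294, an inhibitor of the H3K9 methyltransferase G9a, DZNep, an inhibitor of S-adenosylhomocysteine hydrolase that lowers histone methylation including that of H3K27, and TSA (trichostatin A), an inhibitor of histone deacetylases, gave 2 lists each, from embryos 1.8 and x17. Drugs were given for 18 to 24 h ahead of the DamID virus, with the harvest at 60 h. The last group (shAC, 2 lists, embryos 1.5 and x17) was infected with a virus carrying a short hairpin against lamin A/C and selected with puromycin. There the DamID virus followed 4 days after infection, with the harvest 48 h later. The untreated cells carried no hairpin virus, so infection and selection cannot be told apart from the knockdown. The lists hold interval positions without scores or read numbers, so the depth behind each break and the level of lamin A/C in the knockdown are unknown here. The 3 drug groups were drawn from 2 embryos, and all 4 treatments are compared with the same WT lists.

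In WT, embryo 1.5 had 969 breaks in 1377 Mb of LAD, embryo 1.8 had 2162 in 1507 Mb and embryo x17 had 2804 in 1429 Mb. Per Mb of LAD these were 0.704, 1.43 and 1.96 breaks, so the WT lists alone spanned most of the range seen in the study. The BIX01294 lists had 1.42 (embryo 1.8) and 1.98 (embryo x17) breaks per Mb. In the DZNep lists there were 1.26 and 1.83 breaks per Mb in the same order. The TSA lists had 1.15 and 1.27 breaks per Mb. The shAC lists had 1.51 (embryo 1.5) and 1.84 (embryo x17) breaks per Mb. In every treatment with lists from 1.8 and x17 the list of embryo x17 was the more broken, and the list of WT embryo 1.5 stood below all others. Breaks took up little of the LADs, 1.16 to 3.14% of LAD bases.

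None of the 4 treatments differed from WT in breaks per Mb by more than the spread between lists. The difference from the WT mean of 1.37 ± 0.632 (SD, n = 3 lists) was 0.33 for BIX01294, 0.18 for DZNep, -0.15 for TSA and 0.31 for shAC, with exact permutation p-values of 0.5, 0.8, 0.7 and 0.7 (two-sided; adjusted p = 0.8 for all 4). Without the sparse WT 1.5 list the 3 positive differences were 7.88e-05 for BIX01294, -0.15 for DZNep and -0.023 for shAC, and that for TSA was -0.485. TSA minus WT was 0.14 without WT x17, and DZNep minus WT was -0.10 without DZNep x17. With 3 lists against 2 the smallest p that the 10 arrangements allow is 0.1, so no comparison of this kind could have passed 0.05. Within embryos, TSA was lower than WT in both (by 0.28 breaks per Mb in embryo 1.8 and by 0.69 in x17), and DZNep was lower by 0.17 and 0.13. BIX01294 differed by -0.015 in embryo 1.8 and by 0.015 in x17. shAC was 0.81 higher than WT in embryo 1.5 and 0.12 lower in x17.

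The direction for TSA turned with the stretch of genome compared. All 11 lists had LAD in common over 1069 Mb. In those bases the WT lists had 0.205, 0.295 and 0.414 breaks per Mb and the TSA lists 0.503 and 0.629, so every TSA list lay above every WT list there. The difference was 0.26 breaks per Mb (exact permutation p = 0.2 for 3 against 2 lists). shAC x17 was higher still, at 0.675, while shAC 1.5, at 0.331, lay within the WT range. The TSA lists and shAC x17 held the fewest LAD bases (1356, 1302 and 1339 Mb), and 34.4, 40.5 and 29.3% of their breaks lay in the shared bases, against 14.6 to 22.6% in WT. Lists with less LAD bound the shared bases by construction, and in the 701 Mb that lay at least 100 kb inside the shared stretches TSA was again higher, by 0.17 breaks per Mb (exact permutation p = 0.2, with 2 lists against 3).

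**Figure D1:**
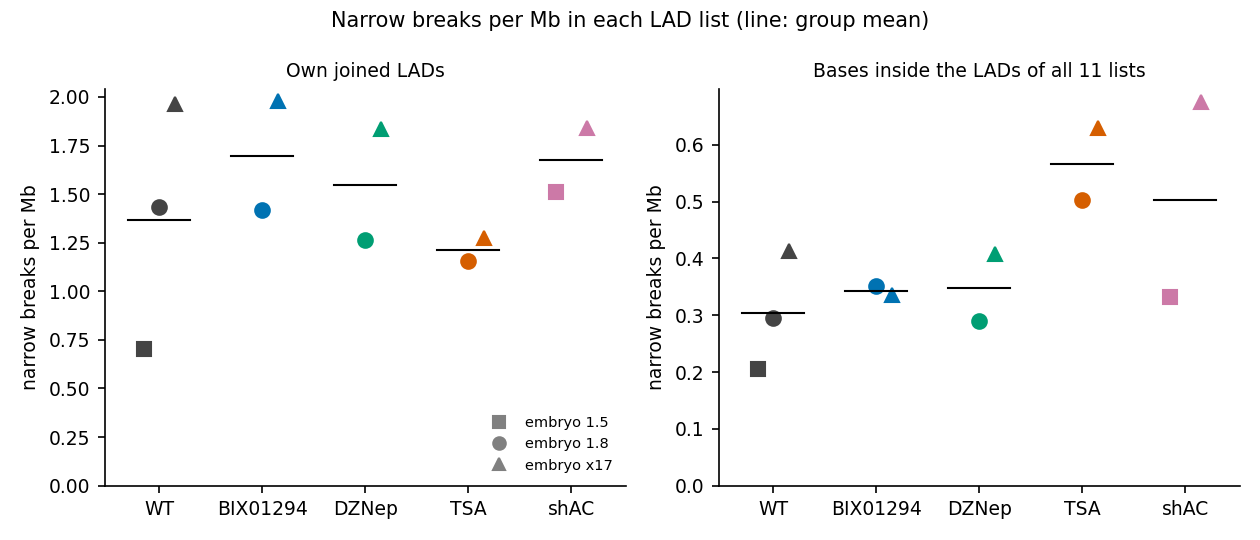
Narrow breaks per Mb (vertical axes) for each list by group, with the symbol giving the embryo and the line the group mean; left, in each list's own LADs, right, in the bases that are LAD in all 11 lists. On the left WT runs from 0.704 to 1.96 and covers nearly all treated lists; on the right both TSA lists (0.503 and 0.629) and the shAC list of embryo x17 (0.675) lie above the 3 WT lists.

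The length of a break was bounded on both sides, by the rule and by the shortest gap in the lists. Within these bounds the median was 15.99 kb in WT embryo 1.5 and between 15.1 and 15.6 kb in the other 10 lists. Of all breaks in a list, 43.2 to 49.6% were shorter than 15 kb, 29.3 to 32.3% were 15 to 20 kb long and 20.3 to 25.4% were longer than 20 kb. Counts on either side of the 25 kb limit were similar: gaps of 24 to 25 kb numbered 53 to 154 per list and gaps of 25 to 26 kb 54 to 133, whether or not they lay in a LAD. Narrow gaps made up 26.3 to 41.5% of all gaps in a list.

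Breaks were spread over 35.2 to 67.1% of the LADs of a list. If each break had been placed with equal chance at any LAD base, 32.4 to 55.3% of LADs would have held a break, and the observed share was the higher one in each list. The most broken LAD held 6 to 12 breaks, depending on the list. Unbroken LADs reached 9.78 Mb in WT embryo 1.5 and 5.32 to 6.53 Mb in the other lists. Long LADs were broken less often per base than short ones in every list: LADs of 100 to 250 kb had 3.36 ± 1.17 (SD, n = 11 lists) breaks per Mb, those of 250 to 500 kb 2.54 ± 0.86, those of 500 to 1000 kb 1.83 ± 0.478 and those over 1000 kb 0.864 ± 0.199. Joining across breaks lifts some runs of short intervals over the 100 kb limit, which by itself raises the value for the shortest class. Even so, LADs over 1000 kb held 30.9 to 38.3% of all breaks.

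Chromosomes differed in the number of breaks per Mb of LAD, and a few held their place across lists. Chromosome 7 was among the 3 least broken of the 19 autosomes in each of the 11 lists, with 1.09 ± 0.275 breaks per Mb (SD, n = 11 lists). Chromosome 10 was among the 6 most broken in each, with 1.88 ± 0.524. Other chromosomes changed places between lists, chromosomes 15 and 19 from the bottom ranks to the top.

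Within the LAD, breaks gathered toward the edges. In the 11 lists 32.0% ± 2.23 (SD) of breaks had their center in the outer 10% of the LAD at either side, against 16.6% ± 0.264 for placement with equal chance along the LAD. The ratio of observed to even placement was 1.93 ± 0.12 and ranged from 1.82 (BIX01294, embryo 1.8) to 2.23 (WT, embryo 1.5). All 3 WT lists (2.23, 1.84 and 1.91) and all 8 treated lists (1.82 to 2.03) showed it. The outermost 5% held 17.7% ± 2.67 of breaks, against 6.57% for even placement, and the innermost class, from 45% to the middle, held 7.24% ± 0.503, against 10.4%. From 15% of the LAD length inward the mean share over the lists lay below even placement. Measured in bases, the outer 50 kb held 30.2 to 36.8% of breaks, against 19.1 to 24.99% for even placement. By the rule, a short end interval joined across a gap becomes the edge of the LAD, which by itself puts that gap near the edge. Even placement used the edges after joining, so the ratio includes this part, and its size was not tested.

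**Figure D2:**
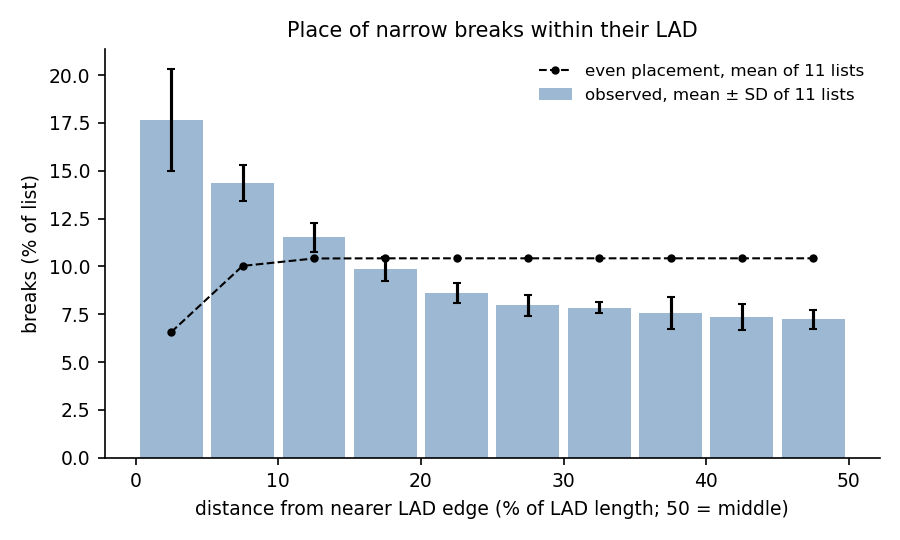
Share of breaks (vertical axis, percent of a list's breaks, bars with SD over 11 lists) by distance of the break's center from the nearer edge of its LAD (horizontal axis, percent of LAD length, 50 being the middle), with the share that even placement gives as a dashed line. Observed shares fall from 17.7% next to the edge to 7.24% at the middle and cross even placement between 10 and 20%.

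A break cuts a LAD into pieces, and the pieces were unequal. The shorter of the 2 intervals next to a break had a median length of 33.3 to 46.4 kb, and the longer one a median of 183 to 375 kb, depending on the list. In 36.5 to 43.2% of breaks the shorter piece was under 25 kb, and in 22.4 to 30.5% both pieces were at least 100 kb long. Breaks of the first kind detach a small island of called LAD, and breaks of the second kind interrupt a solid stretch. The shortest called interval anywhere in a list was 1 to 62 bp long, depending on the list, so an island can be far shorter than the break beside it. Where a LAD held several breaks, neighboring ones lay a median of 93.9 to 127 kb apart.

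The breaks recurred at the same places. Over the 110 ordered pairs of lists, 21.8% ± 6.78 (SD) of the breaks of one list overlapped a break of the other, with a range of 9.02 to 33.8%. Even placement of the first list's breaks within its own LADs would give 2.83% ± 0.742, and the ratio of observed to even was 7.75 ± 1.5, lowest at 4.12 and highest at 11.3. Every ordered pair thus lay at least 4.12 times above even placement. Even placement takes no account of the gathering of breaks near LAD edges and in short LADs. Features of the sequence that all lists share, such as gaps in the assembly, were not examined, and their part in the recurrence was not tested. The raw share followed the number of breaks in the list searched: the breaks of the other lists were found in the sparse WT embryo 1.5 list in 10.8% ± 1.57 of cases (n = 10 lists), and its own breaks were found in the others in 24.9% ± 5.68. Relative to even placement the values were 8.16 ± 0.975 and 8.6 ± 1.92. Pairs share lists, so the SDs over pairs describe their spread only.

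The ends of overlapping breaks were compared too, although overlap by itself limits how far apart they can lie. Over the 55 pairs of lists, the ends of overlapping breaks differed by a median of 2.82 kb ± 0.468 (SD over pairs), and 68.7% ± 4.16 of ends lay within 5 kb of each other. Breaks of the same lengths placed with equal chance at every overlapping position would give a median of 7.9 kb ± 0.088 and 31.7% ± 0.354 within 5 kb. Ends on the very same base made up 7.39% ± 1.81, and breaks with both ends identical 0.709% ± 0.485.

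**Figure D3:**
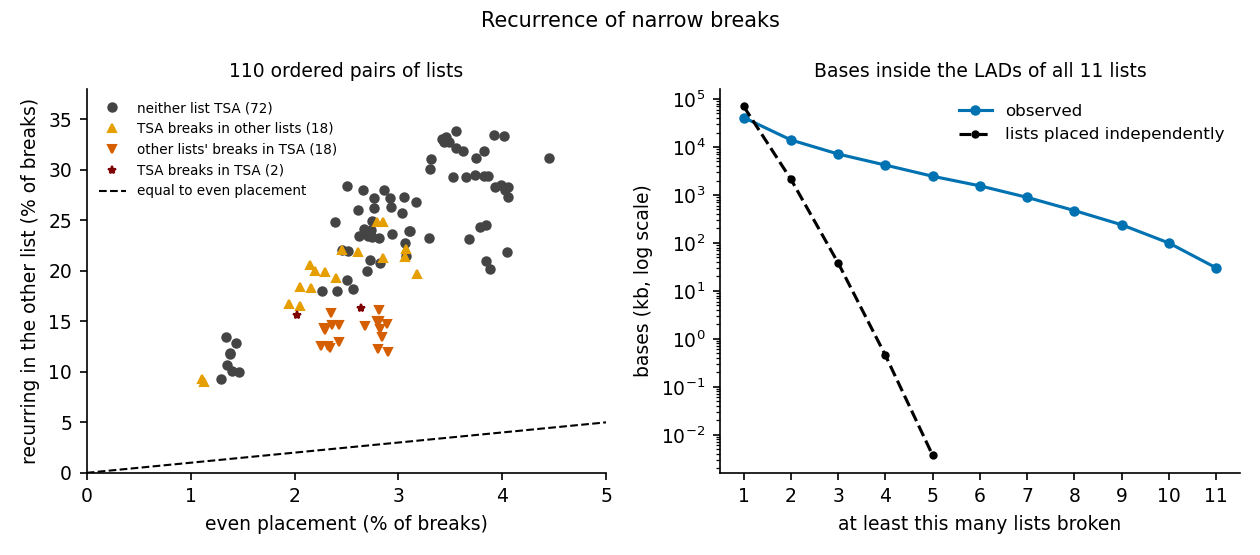
Left, for each of the 110 ordered pairs of lists, the percent of breaks that overlapped a break of the other list (vertical axis) against the percent that even placement gives (horizontal axis), with the dashed line marking equality; right, kb of sequence within the shared LAD bases (log axis) broken in at least the given number of lists, observed and for lists placed independently. All pairs lie far above the dashed line, the breaks of other lists searched in TSA low for their even value (11.95 to 16.1%), and sequence broken in 3 or more lists came to 7126 kb, against 38 kb for independent lists.

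Taking overlapping breaks of all lists as 1 site gave 11482 sites with a median length of 17.8 kb. Of these, 6481 (56.4%) were broken in a single list, 5001 in 2 lists or more, 500 in 6 or more, 24 in 10 or more and 3 in all 11. In the shared LAD bases, 1548 kb were broken in 6 or more lists, whereas lists placed independently at their observed rates would give less than 1 kb already for 4 or more lists (0.451 kb, against 4196 kb observed). This reference, too, takes every shared base as equally likely to be broken. The WT lists took part in 38, 68.6 and 79.6% of the 500 frequent sites (embryos 1.5, 1.8 and x17). The BIX01294 lists took part in 66.8 and 76.8%, the DZNep lists in 68.2 and 78.8% and the shAC lists in 72 and 65.8%. The TSA lists took part in 44.0 and 42.4%, fewer than any other list except WT embryo 1.5, the list with the fewest breaks. Apart from the sites of a single list, 303 sites were broken in 2 or more lists of 1 group and in no other group. Those broken in all lists of the group and in no other list at the site's core numbered 5 for WT (3 lists, so not comparable with the rest) and 74, 48, 45 and 59 for BIX01294, DZNep, TSA and shAC (2 lists each). A pair of lists from different groups held 41.6 ± 25.1 such sites of its own (SD over 48 pairs; 13 to 118), and the 4 counts lie within that range. Its highest values, 118, 112 and 97, came from pairs of x17 lists, whereas the 2 lists of a treatment never share an embryo. Among pairs of different groups and different embryos the highest count was 75 (WT 1.8 and BIX01294 x17), next to the 74 of BIX01294.

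How often a break recurred depended on where it lay. Of the breaks of a list, 63.4 to 76.1% overlapped a break in at least 1 of the 10 other lists, on average in 1.86 to 2.49 of them. Breaks centered in the outer 10% of the LAD were found in 1.67 ± 0.0983 other lists (SD, n = 11 lists) and those in the inner 50% in 2.47 ± 0.305, with the inner breaks ahead in every list. Breaks with a neighboring piece under 25 kb were found in 1.34 ± 0.116 other lists and breaks with at least 100 kb of called LAD on both sides in 3.05 ± 0.343. The edges thus held more breaks than even placement gives, and breaks in the interior of solid LADs recurred more. Breaks in LADs over 1000 kb were found in 2.61 ± 0.298 other lists and those in LADs of 100 to 250 kb in 1.3 ± 0.142. Length mattered less, from 1.99 ± 0.261 other lists for breaks under 15 kb to 2.38 ± 0.186 for 15 to 20 kb and 2.32 ± 0.196 above that, although a longer break meets others more easily.

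The 3 sites broken in all 11 lists are the extreme of 11482 and were chosen for the overlap of their breaks; positions are on build mm9. The first has its core, the stretch broken in every list, at chr10:10265951-10277378. Its break was 20.3, 13.4 and 15.3 kb long in WT (embryos 1.5, 1.8 and x17), 11.99 and 13.1 kb with BIX01294, 13.9 and 14.4 kb with DZNep, 12.5 and 13.95 kb with TSA, and 14.5 and 15.98 kb in shAC. Left ends had an SD of 1.43 kb and right ends of 1.21 kb over the 11 lists, and no group stood apart. The second core lies at chr1:30642355-30652119. There the break was 15.99, 12.4 and 14.03 kb long in WT, 10.955 and 11.9 kb with BIX01294, 11.85 and 13.04 kb with DZNep, 16.2 and 14.5 kb with TSA, and 20.7 and 17 kb in shAC. The third core lies at chr16:97281201-97290226, where breaks ran from 10.8 kb (WT, embryo 1.8) to 20.9 kb (DZNep, embryo x17). Its left ends were tighter (SD 1.35 kb) than its right ends (SD 3.57 kb).

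The next 7 sites by number of lists were broken in 10 lists, with cores of 10.9 to 18.2 kb. They lie at chr14:104856628-104874822, chr12:94909475-94924341, chr8:31234142-31248425, chr12:39503682-39516165, chr10:22199166-22211201, chr6:128703904-128715878 and chr9:81518809-81529742. In 6 of the 7 the remaining list was also open there, but in a gap of 25 kb or more. This gap was 28.4 kb with DZNep x17 at the first, 26.5 kb with DZNep 1.8 at the second, 28.2 kb in WT x17 at the third and 26.8 kb with DZNep x17 at the fourth, in each case only just past the 25 kb limit. It was 142 kb in shAC x17 at the site on chromosome 10 and 211 kb with TSA 1.8 at the site on chromosome 9. At the site on chromosome 6, WT embryo 1.5 had a called interval of 647 kb.

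The 5 windows of 1 Mb with the most breaks were chr2:124000001-125000000 (48 breaks summed over the lists, 1 to 8 per list), chr10:29000001-30000000 (47, 0 to 9), chr3:133000001-134000000 (41, 0 to 7), chr7:6000001-7000000 (41, 1 to 7) and chr8:85000001-86000000 (41, 2 to 7). The median over the 2072 windows with a break was 10. In the window on chromosome 10, WT had 4, 4 and 9 breaks and TSA 0 and 1, and the LAD bases called there ranged from 25.2 to 967 kb between lists.

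Recurrence between lists was compared within and between groups to ask whether treated cells broke their LADs at other places. Pairs within WT recurred in 10.1 to 29.3% of breaks. The mean over pairs within a group minus that between WT and the treated lists was 4.56 percentage points for TSA (20.1% ± 3.38 within, 15.6% ± 3.13 between; SD over pairs), the largest separation that any of the 10 arrangements of the 5 lists gave (exact permutation p = 0.1, adjusted p = 0.4). For BIX01294, DZNep and shAC the difference was negative, -2.50, -1.89 and -0.29 points (exact permutation p = 0.8, 0.8 and 0.5). Pairs within a group never share an embryo, whereas 2 of the 6 pairs between WT and a treatment do. With pairs of different embryos only, a choice made after seeing the data, the difference was -0.079 for BIX01294, 0.29 for DZNep, 0.56 for shAC and 6.11 for TSA (not tested), and with same-embryo pairs between groups only it was -4.80, -3.51, -1.58 and 1.40. The values also rested on WT x17: without that list the difference was 4.04 points for shAC, 0.85 for DZNep and -0.14 for BIX01294. Expressed relative to even placement, the separation was 1.1 for TSA (exact permutation p = 0.2) and turned positive for shAC (0.42, exact permutation p = 0.3).

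The values for TSA depended on the direction of the search. WT breaks were found in the TSA lists in 14.1% ± 1.49 of cases (SD over 6 pairs), 5.47 ± 0.697 times even placement. TSA breaks were found in the WT lists in 17.1% ± 6.68 of cases, 8.32 ± 0.801 times even placement. WT breaks were found in other WT lists in 21.5% ± 8.33 of cases, 8.33 ± 1.64 times even placement. The 2 TSA lists shared 15.6 and 16.3% of their breaks with each other, fewer than the pairs within BIX01294 (21.5 and 31.2%), DZNep (22.01 and 32.2%) or shAC (24.9 and 28.3%). Relative to even placement this was 6.96 ± 1.1 for TSA, against 7.65 ± 0.948, 8.91 ± 0.201 and 8.14 ± 1.32 (SD over 2 directions).

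Lists from the same embryo resembled each other across treatments. All x17 lists are labeled replicate 2 and all others replicate 1, so for x17 embryo and replicate number cannot be told apart. Among pairs from different treatments, those of the same embryo shared 23.4% ± 5.87 of breaks (17 pairs, mean of both directions) and those of different embryos 20.7% ± 4.85 (31 pairs), a difference of 2.76 points. Permuting the embryo names within treatments gave as large a difference in 2 of 96 arrangements (exact permutation p = 0.0208, one-sided). The ends of overlapping breaks were also closer in the same embryo, 2.57 kb ± 0.517 against 2.93 kb ± 0.413 (exact permutation p = 0.0104, one-sided, the smallest that 96 arrangements allow; this measure was added after the recurrence values were seen). As a ratio to even placement the difference was 0.35 and did not pass the test (exact permutation p = 0.188). Lists of embryo x17 had more breaks than those of 1.8, and their numbers of breaks move with the raw share.

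What lay at the place of a WT break in the lists that did not have it was then determined from the base at its center. In another WT list, 18.6% ± 7.17 (SD over 6 pairs) of the centers were again in a break, 44.8% ± 6.61 in a called interval, so that the LAD was continuous there, and 36.2% ± 8.04 in a gap of 25 kb or more. Of all LAD bases in WT, by comparison, 6.39% ± 2.99 lay in such wide gaps of another WT list and 92.2% ± 2.84 in its called intervals. WT breaks therefore fell into wide gaps of other WT lists 6.41 ± 2.14 times as often as LAD bases did. Breaks next to a piece under 25 kb did so in 52.1% ± 11.6 of cases and breaks with 100 kb or more on both sides in 19.98% ± 4.26. The latter were more often broken again (26.5% ± 9.35 against 10.5% ± 3.99).

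In the TSA lists more WT breaks lay in wide gaps than in any other group. The share was 52.9% ± 4.57 (SD over 6 pairs; lowest 47.0%, highest 59.5%), against 36.2% ± 8.04 (27.8 to 47.7%) in the other WT lists, so the ranges barely overlapped. The difference of 16.8 percentage points was the largest that the 10 arrangements gave (exact permutation p = 0.1, adjusted p = 0.4), and in same-embryo pairs the share was 54.9% in 1.8 and 55.7% in x17. For shAC the share was 40.3% ± 6.44 (difference 4.15 points, exact permutation p = 0.5), for DZNep 35.4% ± 4.25 (-0.74, p = 0.9) and for BIX01294 28.2% ± 5.61 (-8.02, p = 0.4). The value for BIX01294 was -3.93 without BIX01294 x17 and -12.1 without BIX01294 1.8, and those for DZNep and shAC changed sign with single lists left out (DZNep 1.90 without WT 1.5, shAC -0.26 without shAC x17). LAD bases of WT as a whole moved in the same direction: 12.2% ± 1.69 of them lay in wide gaps of the TSA lists, against 3.74 to 7.45% on average in the lists of the other groups. Relative to all LAD bases, WT breaks were 4.36 ± 0.311 times as frequent in the wide gaps of TSA, a smaller ratio than within WT. The part that the smaller LAD total with TSA has in the result was not tested beyond this ratio.

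**Figure D4:**
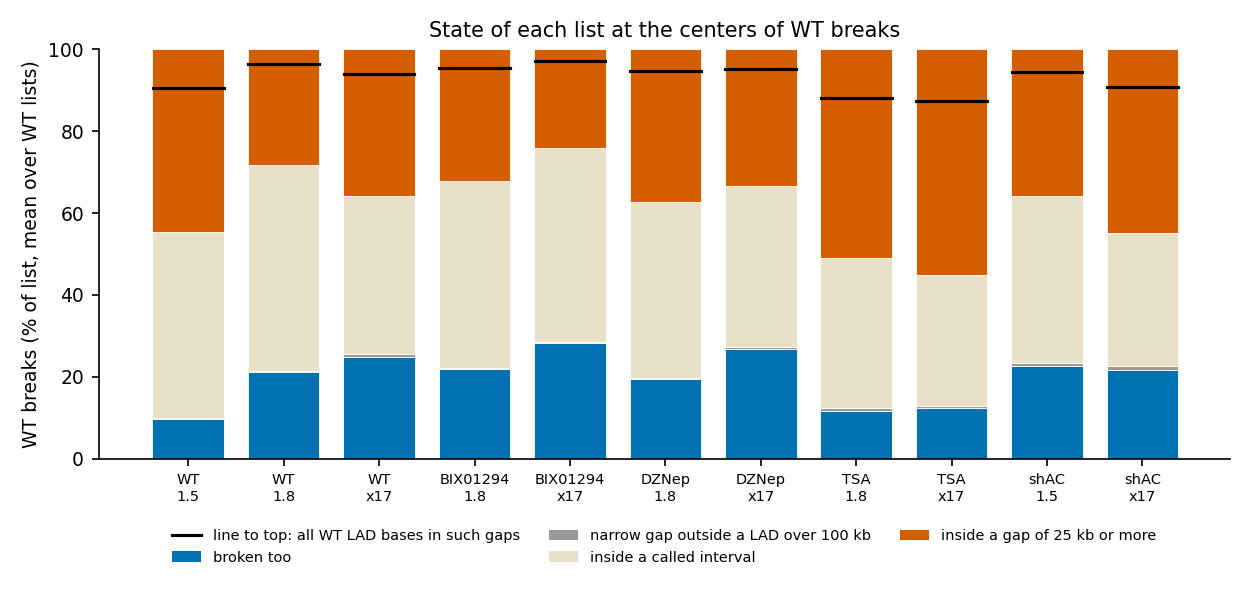
State of each list (horizontal axis) at the centers of WT breaks, in percent of a WT list's breaks (vertical axis, mean over the WT lists other than the list itself); the distance from each black line to the top is the percent of all WT LAD bases in gaps of 25 kb or more. Wide gaps take the most in TSA (52.9% over both lists), and in every list they hold a far larger share of breaks than of LAD bases.

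The wide gaps that took up WT breaks were longer with TSA than with the other treatments. Their median length was 206 and 221 kb in the TSA lists (each WT break counted with its gap), against 59.0 to 90.6 kb in the BIX01294, DZNep and shAC lists and 77.1 and 77.4 kb in WT 1.8 and x17. WT 1.5, with 230 kb, resembled TSA. Gaps of 250 kb or more took 43.0 and 45.8% of these breaks with TSA, 10.8 to 23.1% with the other treatments, and 47.7, 17.6 and 15.7% in WT 1.5, 1.8 and x17.

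The same was seen for the 131 stretches that were broken in all 3 WT lists. In the BIX01294 lists 52.7 and 57.3% of them were broken, in the DZNep lists 51.9 and 55.7%, and in the shAC lists 52.7 and 47.3%. In the TSA lists 29.0 and 28.2% were broken, and 43.5 and 51.1% lay in wide gaps, against 9.92 to 29.8% in the other 6 treated lists. The share covered by a called interval was 27.5 and 20.6% with TSA, within the range of the other treated lists (16.8 to 32.8%). WT embryo 1.5 enters all 131 stretches, and as the sparsest list it limits their number. By stretches of sequence, those broken in all WT lists and in wide gaps of both treated lists numbered 40 for TSA (394 kb), 20 for DZNep, 16 for shAC and 9 for BIX01294, and those broken in all WT and both treated lists numbered 17 for TSA, 49 for DZNep and 45 each for shAC and BIX01294.

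The longest stretch broken in WT and in wide gaps with TSA lies at chr16:14701412-14722617. WT had breaks of 22.4, 23.2 and 23.1 kb there and TSA gaps of 551 kb (embryo 1.8) and 146 kb (x17), while both BIX01294 lists kept a break (21.4 and 16.3 kb). The next, chr10:99476060-99496667, held breaks of 20.8, 22.7 and 21.8 kb in WT and gaps of 111 and 98.7 kb with TSA. It was also the longest such stretch for DZNep (gaps of 164 and 59.4 kb) and for shAC (31.4 and 57.9 kb), and only BIX01294 x17 among the treated lists kept a break (21.2 kb). The next for DZNep, chr9:68224373-68238458, had gaps of 25.6 and 38.9 kb, just past the limit, and that for shAC, chr2:162755021-162772292, gaps of 117 and 186 kb. With BIX01294 the 2 longest stretches, chr2:104686017-104705227 (gaps of 42.0 and 28.7 kb) and chr9:5342693-5353490 (40.7 and 28.9 kb), lay in gaps of at most 42.0 kb.

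Breaks of treated cells that were absent from WT were read in the same way. In the WT lists, 60.1% ± 6.7 of the centers of TSA breaks lay in called intervals (SD over 6 pairs), against 49.6% ± 9.22 for shAC, 43.8% ± 6.36 for DZNep, 39.0% ± 6.81 for BIX01294 and 44.8% ± 6.61 for WT breaks in other WT lists. The lists within a group differed: against WT 1.5, 1.8 and x17 the share was 58.4, 61.4 and 45.5% for shAC x17, close to TSA 1.8 (57.0, 59.7 and 50.3%) and below TSA x17 (67.2, 68.1 and 58.3%). Of all LAD bases, 92.8% ± 2.15 with TSA and 93.6% ± 1.69 in shAC lay in called intervals of WT. The differences between groups were not tested. Stretches broken in both treated lists and called in all 3 WT lists numbered 135 for TSA (median length 9.18 kb, 1086 kb in all), 187 for shAC (4.3 kb, 1173 kb), 156 for DZNep (2.91 kb, 853 kb) and 124 for BIX01294 (3.67 kb, 656 kb). Treatments differ in how much was broken in both lists, 3105 kb with TSA, 7910 kb in shAC, 7290 kb with DZNep and 8175 kb with BIX01294, and of these bases 34.97, 14.8, 11.7 and 8.03% were called in all 3 WT lists. All 4 medians lie below the smallest gap in the lists, so most of these stretches are parts of breaks and not whole ones.

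The longest such stretch for TSA lies at chr6:96518518-96540952. Both TSA lists had a break of 24.5 kb there, WT had called intervals of 698, 845 and 804 kb, and of the other treated lists only shAC 1.5 was broken (19.4 kb). The second, on chromosome 18, was broken in both TSA lists (23.0 and 24.1 kb) and lay in called intervals of 472 to 1128 kb in each of the other 9. For BIX01294 the longest were chr19:42915711-42933422 (breaks of 19.1 and 22.6 kb; shAC 1.5 also broken, 20.9 kb) and chr4:109981551-109998073 (19.6 and 16.5 kb), where DZNep x17, both TSA lists and shAC 1.5 were broken as well. For DZNep they were chr8:67544103-67563466 (23.2 and 19.6 kb), broken also in TSA x17 and both shAC lists, and chr3:125541759-125560907 (20.2 and 19.998 kb), inside called intervals of more than 2 Mb in WT (2273, 2285 and 2272 kb). For shAC they were chr1:160581939-160603292 (21.4 and 24.6 kb), open in each of the 6 drug lists too, and chr2:17328645-17348585 (21.9 and 19.9 kb). Of these 8 stretches the one on chromosome 18 was open in a single treatment, and the other 7 were open in at least 1 list of another treatment.

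**Figure D5:**
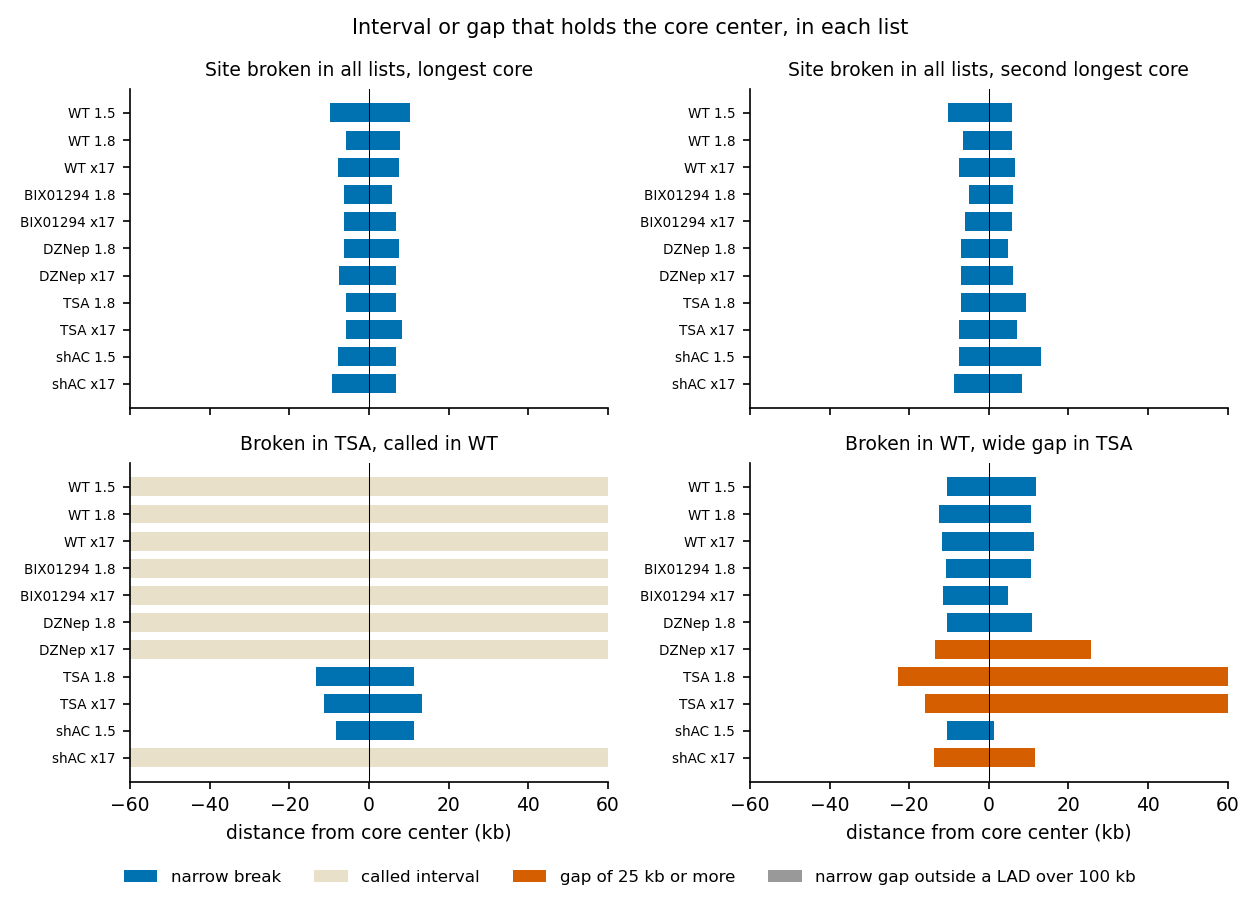
The interval or gap that holds the core's center in each of the 11 lists, as distance from that center in kb (horizontal axis; bars longer than the axis are cut at 60 kb), for the 2 sites with the longest cores broken in all lists (upper panels), the longest stretch broken with TSA and called in WT (lower left) and the longest broken in WT and in wide gaps with TSA (lower right). In the upper panels all 11 breaks are 10.955 to 20.7 kb long and lie over each other; at lower right the gap opens toward the right in both TSA lists (551 and 146 kb).

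The opposite change, breaks of all WT lists that were closed in both treated lists, was seen for 17 stretches with TSA (108 kb), 27 with DZNep (136 kb), 30 with BIX01294 (148 kb) and 32 with shAC (188 kb). Bases broken in all 3 WT lists came to 1360 kb. Of all WT LAD bases, 86.3% lay in called intervals with TSA, 93.4% with DZNep, 94.6% with BIX01294 and 90.7% with shAC, on average over pairs. The differences between these counts were not tested. With TSA the longest were chr7:64224844-64238098, where WT breaks of 17.3, 18.4 and 15.1 kb stood against called intervals of 1453 and 858 kb, and chr14:55632873-55645321 (24.8, 12.4 and 16.8 kb; called intervals of 123 and 107 kb). The first was closed in both shAC lists too (1457 and 2386 kb). For DZNep and shAC alike the longest was chr9:28083293-28098518, with WT breaks of 16.2, 15.2 and 16.2 kb and BIX01294 breaks of 13.4 and 15.9 kb, closed in DZNep (516 and 565 kb) and shAC (559 and 577 kb). The second for DZNep was chr9:8247708-8259310 (WT breaks of 24.7, 11.6 and 13.8 kb). For BIX01294 they were chr6:65491952-65504281 and chr8:85291028-85302148, closed in intervals of 470 and 455 kb and of 149 and 145 kb.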

How the data were processed

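DamID-seq was performed on 22 samples, 11 pairs of Dam-lamin B1 and Dam-only. The authors called LADs with LADetector (circular binary segmentation of Dam-lamin B1 over Dam-only), on build mm9 per the labels, and deposited 1 list of interval positions per pair; the study's methods join LADs less than 25 kb apart and keep those over 100 kb, which the lists themselves do not show. The aligner is not given in the sources used here, and the deposited positions carry no counts, so the depth is unknown.

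Here, with Python 3.11.15 and numpy 2.4.6, gaps under 25 kb were joined, LADs over 100 kb kept, and the gaps inside them taken as breaks. 2 breaks recurred if they shared at least 1 base. Even placement was computed over all positions of a break within its list's LADs, without drawing. Lists were compared by exact permutation tests over lists, with Benjamini-Hochberg adjustment over the 4 treatments. Lists of a shared embryo come from the same animal by the labels' embryo names, and formed the block in the paired alternative. The labels number lists of embryos 1.5 and 1.8 as replicate 1 and those of x17 as replicate 2, and what the number stands for is not given. Nothing else says that the 2 or 3 lists of a group come from separate preparations beyond the embryo. Break finding, overlap and even placement were tested on simulated lists. Named sites were those in most lists (10, ties by core length), the 2 longest stretches per treatment in each class of change, and the 5 most broken windows. The members, sites and comparisons were chosen with earlier results of these data known. The even reference for break ends, the counts of sites for pairs of lists and the shares of bases broken in both treated lists were added after seeing the data. Chromosome X was left out by the rule. Genes at the breaks are not analysed here, since the gene tables used belong to another build. Figures were drawn with matplotlib 3.10.9.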

Additional observations from a re-analysis of the deposited data

Results flagged for a closer look

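The treatment effect on breaks per Mb went opposite ways in the 2 embryos for shAC (0.81 above WT in embryo 1.5 and -0.12 in x17) and, at a size near 0, for BIX01294 (-0.015 in embryo 1.8 and 0.015 in x17). With 1 list per embryo and treatment these differences between embryos were not tested. The WT list of embryo 1.5 had the fewest breaks of all lists (969), and without it shAC minus WT was -0.02 breaks per Mb.

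Chromosome X, outside the comparisons, held 1173 breaks over the 11 lists. It had fewer breaks per Mb of LAD than the autosomes in each of the 11 lists, at 0.356 to 0.668 times the autosomal value, for example 1.27 against 1.96 per Mb in WT x17 and 0.25 against 0.704 in WT 1.5.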

How the results depend on the processing

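Of 146 alternatives over 15 results, 126 left the direction and the side of the threshold as they were, 17 turned a direction, 1 lost significance and 2 moved a value. None of the 12 comparisons of a treatment with WT could pass 0.05. Breaks per Mb: TSA minus WT turned positive in the bases in LADs of all lists (0.26) and 100 kb inside them (0.17, added after seeing the data), and ranged from -0.485 to 0.14 with 1 list left out. DZNep minus WT turned to -0.15 with the replicate block, and ranged from -0.15 to 0.48 with 1 list left out, negative without WT 1.5 or DZNep x17. shAC minus WT ranged from -0.023 to 0.61 (negative without WT 1.5). BIX01294 minus WT ranged from 7.88e-05 (without WT 1.5) to 0.63. WT breaks in wide gaps: BIX01294 ranged from -12.1 to -3.93 points with 1 list left out; DZNep turned to 0.49 points in LADs over 500 kb and 1.56 with the block, and ranged from -3.40 to 1.90 with 1 list left out; shAC ranged from -0.26 (without shAC x17) to 8.56; TSA ranged from 14.3 to 20.9, was 21.0 with the block and 17.2 with wide gaps of 50 kb or more. Recurrence separation: with pairs of different embryos only, added after seeing the data, DZNep turned to 0.29 and shAC to 0.56; shAC turned to 0.42 as a ratio to even placement, and ranged from -2.71 to 4.04 points with 1 list left out, positive without WT x17; DZNep ranged from -5.05 to 0.85, also positive without WT x17; BIX01294 ranged from -5.28 to -0.14 (without WT x17); TSA ranged from 2.50 to 5.99 and was 1.40 with the block. Joining gaps under 50 kb raised recurrence over all pairs to 33.6%, where wider gaps count as breaks. The edge ratio was 1.54 for the outer 50 kb. The same-embryo difference kept its call with reciprocal 50% overlap (exact permutation p = 0.0104), without both TSA lists (p = 0.0417 by the same permutation) and in shared bases, and lost it as a ratio to even placement (0.35, exact permutation p = 0.188). The causes were not tested. The block turned no other direction. No alternative bears on depth, which the lists do not give.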
